A study of Homo sapiens with 22 samples.

Results

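The 51 genes described here act in mitosis and were chosen by gene name from the 60240 genes of the deposited count table. All 51 were found once in the table, and all 51 passed the filter on low counts, which left 20115 genes for testing. They fall into 9 roles: the spindle assembly checkpoint (5 genes), mitotic entry (11), the chromosomal passenger complex (4), the kinetochore (7), kinesins (9), spindle assembly (6), cytokinesis (3), anaphase onset and exit (4) and chromosome structure (2).

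The cells were haematopoietic progenitor cells grown from H1 (an established line of human embryonic stem cells), and their polyA-selected RNA was sequenced. In the DOX arm, doxycycline drove ectopic expression of the transcription factor MYC, and libraries were made on days 12, 14, 16, 18 and 20 of culture. The UT arm had no doxycycline and was sampled on day 10 and on the same 5 later days. Each of the 11 groups had 2 libraries, 22 in all. Every title carries the same line name, and no library had doxycycline without ectopic MYC, so effects of MYC and of doxycycline itself cannot be told apart. Whether the 2 libraries of a group came from separate cultures is not in the labels; the p-values rest on the spread between libraries, and that spread may be technical.

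Mitosis begins when the kinase CDK1, bound to a cyclin, phosphorylates its targets; chromosomes condense, kinetochores assemble on centromeres, and motor proteins and microtubules build the spindle. The spindle assembly checkpoint holds back the anaphase-promoting complex until every kinetochore is attached, after which the sister chromatids separate and the cell divides. Most of these genes are transcribed periodically, in the phases just before division, so that their RNA in a culture is commonly read as a measure of cycling cells. In bulk RNA, fewer dividing cells and less of a transcript per dividing cell cannot be told apart.

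Many promoters of such genes carry a cell cycle genes homology region (CHR, letters TTTGAA) and CCAAT boxes, motifs known for binding the DREAM and B-MYB complexes and NF-Y, whereas MYC is known for binding the E-box CACGTG. Each motif was searched on both strands in the 250 bases before the RefSeq transcription start (GRCh38.p14), a window that 42 of the 51 genes had. The 9 without an entry were BUB3, TTK, AURKA, FOXM1, PBK, BIRC5, TPX2, RACGAP1 and UBE2C. The CHR letters were found in 23 of the 42 (54.8%), against 13.3% of all 35116 promoters of the table and 8.92% of the 12463 promoters of genes tested here. CCAAT was found in 33 (78.6%), against 32% and 34.6%, and both motifs together in 20 (47.6%), against 4.69% and 3.57%. CACGTG was found in 5 (11.9%), against 6.34% and 8.52%. Matches of different motifs were counted separately even where they share letters, and a match is a description of the sequence only. Of the 29 CHR matches, 19 lay within 60 bases of the start, in 16 genes (38.1%), against 1.48% of promoters of genes tested; this distance was chosen after the values were seen. The promoters of 6 genes are shown because these genes represent the patterns described below: PLK1 and CCNB2 have CHR letters close to the start and were higher in DOX, DLGAP5 and KIF18A fell in UT, and TOP2A and SPC24 rose in UT after TMM scaling. Capitals mark every match to TTTGAA or CCAAT on either strand, so that TTCAAA and ATTGG are matches on the other strand, and each sequence is written 5′ to 3′ on the strand of its gene.
PLK1, chr16:23678639-23678888, plus strand: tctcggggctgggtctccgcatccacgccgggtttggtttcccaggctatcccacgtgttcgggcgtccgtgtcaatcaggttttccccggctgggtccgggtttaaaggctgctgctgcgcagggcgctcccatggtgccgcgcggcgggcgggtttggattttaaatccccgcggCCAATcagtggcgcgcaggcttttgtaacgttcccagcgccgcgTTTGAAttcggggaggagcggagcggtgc
CCNB2, chr15:59104896-59105145, plus strand: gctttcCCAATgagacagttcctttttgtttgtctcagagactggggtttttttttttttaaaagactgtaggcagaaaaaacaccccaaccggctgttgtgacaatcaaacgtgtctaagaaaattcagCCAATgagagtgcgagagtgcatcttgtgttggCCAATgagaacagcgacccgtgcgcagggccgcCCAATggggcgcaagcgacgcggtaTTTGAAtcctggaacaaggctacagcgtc
DLGAP5, chr14:55191586-55191835, minus strand: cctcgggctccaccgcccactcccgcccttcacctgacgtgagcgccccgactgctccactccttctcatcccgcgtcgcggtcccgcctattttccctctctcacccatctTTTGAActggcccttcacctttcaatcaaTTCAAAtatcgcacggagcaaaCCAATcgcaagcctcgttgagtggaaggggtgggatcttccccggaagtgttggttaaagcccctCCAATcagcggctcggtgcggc
KIF18A, chr11:28108157-28108406, minus strand: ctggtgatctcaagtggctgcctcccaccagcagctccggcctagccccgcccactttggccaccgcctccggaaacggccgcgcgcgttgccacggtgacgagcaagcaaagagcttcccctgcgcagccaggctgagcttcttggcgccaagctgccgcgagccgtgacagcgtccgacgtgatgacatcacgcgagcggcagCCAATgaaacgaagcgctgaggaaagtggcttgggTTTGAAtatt
TOP2A, chr17:40417897-40418146, minus strand: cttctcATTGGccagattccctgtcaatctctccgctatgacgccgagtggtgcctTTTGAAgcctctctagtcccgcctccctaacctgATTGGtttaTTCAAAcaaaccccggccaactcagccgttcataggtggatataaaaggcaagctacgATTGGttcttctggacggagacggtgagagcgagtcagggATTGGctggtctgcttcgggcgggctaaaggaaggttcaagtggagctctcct
SPC24, chr19:11155783-11156032, minus strand: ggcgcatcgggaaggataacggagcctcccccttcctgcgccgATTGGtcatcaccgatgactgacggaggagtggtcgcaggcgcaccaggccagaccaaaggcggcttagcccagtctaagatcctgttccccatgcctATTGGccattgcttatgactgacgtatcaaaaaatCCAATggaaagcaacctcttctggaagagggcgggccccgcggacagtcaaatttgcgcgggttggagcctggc

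The promoters of TOP2A and DLGAP5 hold the same 2 motifs, each with CHR letters on both strands and further than 60 bases from the start, and after TMM scaling these genes moved in opposite directions over the UT course. SPC24 has 3 CCAAT matches and no match to the CHR letters in this window. Genes with CHR letters had a median averaged log2 fold change of 0.54 (DOX against UT, 23 genes, range -0.46 to 1.09), and the 19 without had a median of 0.42 (range -0.42 to 1.02). Over the UT course from day 10 to day 20 the medians were -1.46 and -0.69, with ranges of -3.07 to 1.95 and -2.73 to 2.15. The ranges of genes with and without the letters overlapped almost fully in both comparisons.

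The libraries held 24730502 to 53508548 counts. Levels are given as counts per 1000000 counts of a library (CPM) after scaling by the trimmed mean of M-values (TMM), and differences as log2 fold changes. The share of counts from mitochondrially encoded genes had a mean of 8.92% on day 10 and 72.7% on day 20 in UT, and in DOX of 11.3% at day 12 and 57.0% at day 20. Over days 12 to 20 it was 15.0 percentage points lower in DOX (exact two-sided permutation within days, 7776 arrangements, p = 0.0036). Averaged over days 12 and 14 it was only 0.921 points lower. The order differed between these days, with 10.56% in UT and 11.31% in DOX on day 12, and 13.7% and 11.11% on day 14. The 2 UT libraries of day 14 had 17.45% and 9.955%. The counts left for other genes ranged from 7591452 in a UT day 20 library to 46973131 in a DOX day 12 library. Scaling by library size alone, which keeps these shares in, moved the median over all genes tested, on the log2 scale, from 0.08 to 0.60 in the averaged DOX against UT comparison and from -0.24 to -2.41 in the UT course. The mitosis genes' medians moved from 0.47 to 1.00 and from -1.30 to -3.47, and so stayed above and below the median of all genes respectively. Of 9 haematopoietic progenitor markers, 6 rose and 3 fell over the UT course, where 28.1% and 34.2% of all genes tested did. Their summed CPM was 1123 to 1141 on UT day 10, 1324 to 1531 on UT day 20 and 978 to 1075 on DOX day 20. By library size alone 0 rose and 7 fell, where 7.22% and 71.8% of all genes did. CD34 fell from 111 and 106 CPM to 1.98 and 8.12 and KIT from 93.6 and 98.9 to 5.04 and 4.28, whereas MYB rose from 42.0 and 44.3 to 194 and 237 after TMM scaling. Of 5 markers of undifferentiated stem cells, POU5F1, SOX2 and NANOG did not pass the filter on low counts. The other 2 fell over the UT course, LIN28A from 148 and 180 CPM to 0.0989 and 0.0855 and DPPA4 from 24.9 and 28.5 to 10.1 and 11.6. One library stood apart in fibroblast genes, UT replicate 2 of day 16, where 6 of them summed to 546 CPM, against 17.6 in replicate 1 and at most 42.3 in any library of the other groups.

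With days 12 to 20 averaged, most mitosis genes stood higher in DOX. Of the 51, 43 were called higher at an adjusted p under 0.05, where 29.8% of all genes tested were, and 2 were called lower, where 23% were. Their median log2 fold change was 0.47, against 0.08 over all genes tested, and 46 of the 51 had a positive value, against 55% of all genes tested. The size was modest for most of them: the largest differences were those of PBK (1.64), KIF18A (1.09), BUB1 (1.02) and MAD2L1 (1.02). The 2 called lower were TOP2A (-0.46) and SPC24 (-0.42). The 6 not called were CDC25B (0.012), FOXM1 (0.012), BIRC5 (-0.027), NDC80 (0.15), CENPE (-0.27) and KIF20B (-0.29). No averaged call was lost when any 1 library was left out. With days 12 and 14 alone, the median of the 51 was 0.44, and 14.2% of all genes tested were called higher. In that setting 10 of the averaged calls were lost at the same sign, and TOP2A turned to 0.30 without a call. Scaling by library size alone gave 47 higher and 0 lower, where 57.6% and 8% of all genes were, and turned the sign of BIRC5 (0.50), SPC24 (0.11) and TOP2A (0.068). By that scaling CDC25B (0.54), FOXM1 (0.54) and NDC80 (0.69) were called higher. With mitochondrially encoded genes taken out first, NDC80 was also called higher (0.26).

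**Figure D1:**
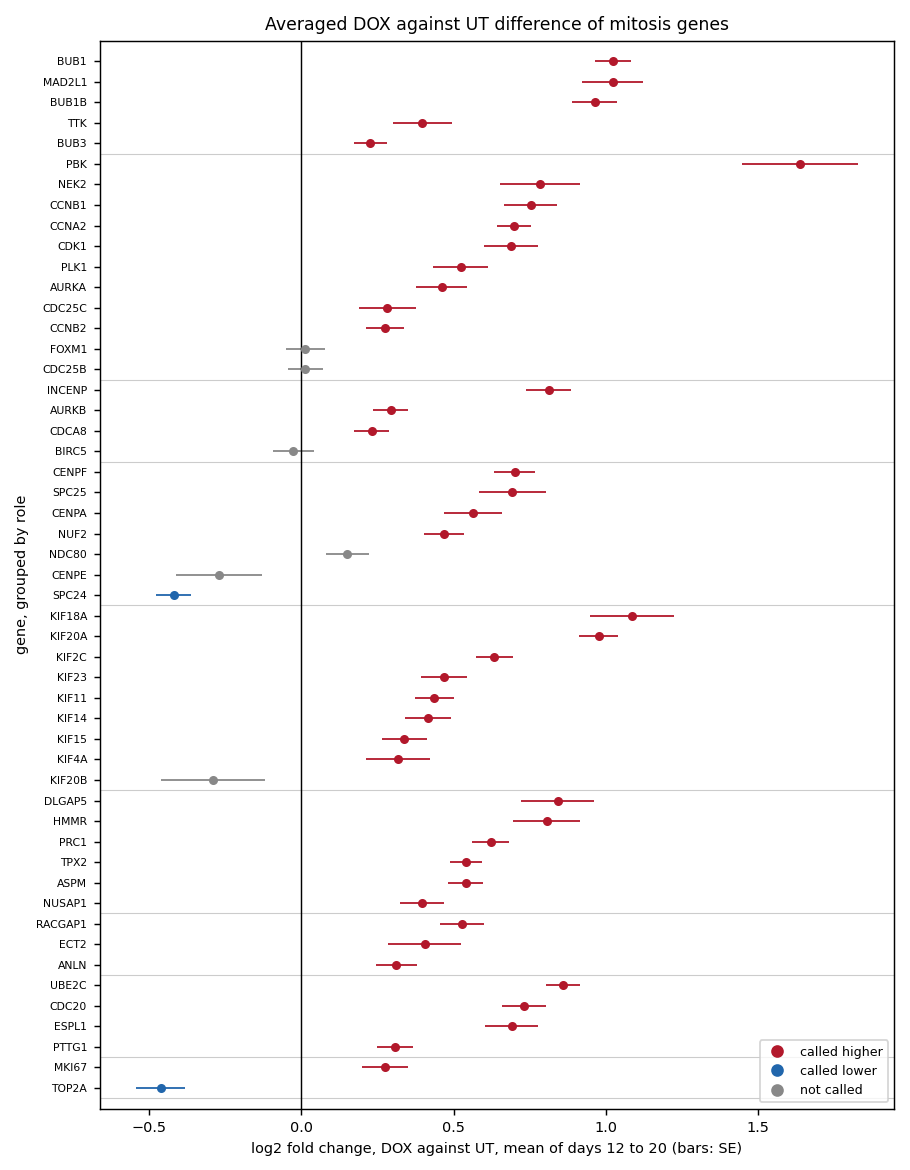
Averaged DOX against UT difference of each of the 51 genes, grouped by role. Points are log2 fold changes over days 12 to 20 with their SE (10 libraries per arm), red for called higher, blue for called lower and grey for not called; 43 genes are red and only SPC24 and TOP2A are blue.

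All 5 spindle assembly checkpoint genes were called higher in DOX, with a median log2 fold change of 0.96. MAD2L1 (ENSG00000164109.14, chr4:120055608-120067074, minus strand of GRCh38), the checkpoint protein that binds CDC20, was, in CPM, at 39.1 and 37.9 (day 12), 47.3 and 70.4 (day 14), 30.9 and 23.6 (day 16), 13.3 and 17.4 (day 18) and 15.2 and 8.98 (day 20) in UT. In DOX the same gene was at 54.1 and 50.8 (day 12), 82.5 and 75.0 (day 14), 75.1 and 84.3 (day 16), 41.0 and 37.1 (day 18) and 36.2 and 25.4 (day 20). Both DOX libraries lay above both UT libraries on all 5 days, and the averaged difference was 2.03-fold (log2 fold change 1.02, SE 0.10, adjusted p = 1.06e-07 by edgeR's quasi-likelihood test). BUB1, a checkpoint kinase of the kinetochore, was 2.03-fold higher (SE 0.06 on the log2 scale), and BUB1B, part of the complex that inhibits the anaphase-promoting complex, 1.95-fold. TTK, the kinase that starts checkpoint signalling, had a log2 fold change of 0.40. BUB3, which anchors BUB1 and BUB1B at kinetochores, had the smallest difference of the 5, 0.23 (SE 0.05, adjusted p = 0.00173). On day 16 BUB3 was at 67.5 and 61.2 CPM in UT and 83.6 and 97.0 in DOX, and on day 20 the arms overlapped, at 55.4 and 61.6 in UT and 63.6 and 58.7 in DOX.

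Of the 11 genes of mitotic entry, 9 were called higher and none lower. CDK1 (log2 fold change 0.69) and its partners CCNA2 (0.70) and CCNB1 (0.75) differed by similar amounts, whereas CCNB2, another B-type cyclin, differed by 0.27. The centrosome kinases NEK2, PLK1 and AURKA had values of 0.78, 0.52 and 0.46. CDC25C, a phosphatase that activates CDK1, was higher by 0.28, while CDC25B, another of these phosphatases, had a value of 0.012 (SE 0.06). PBK, a kinase active in mitosis, had the largest averaged difference of the 51, 3.12-fold (log2 fold change 1.64, SE 0.19, adjusted p = 8.75e-07), at low counts. Without UT replicate 1 or 2 of day 18 the value was 1.50 or 2.37. PBK was at 6.08 and 8.20 CPM in UT and 15.8 and 19.2 in DOX on day 14, and at 4.04 and 3.03 in UT and 13.9 and 20.5 in DOX on day 16. Both arms were lower on day 20, at 1.68 and 2.14 in UT and 2.83 and 4.78 in DOX, and one UT library of day 18 had only 1 count. FOXM1, a transcription factor known for driving many of the other genes, was not called in the averaged comparison (log2 fold change 0.012, SE 0.06, adjusted p = 0.932). By library size alone FOXM1 was called higher (0.54), where 57.6% of all genes were. Its levels were 52.8 and 41.6 CPM in UT and 61.0 and 64.2 in DOX on day 14, 67.9 and 61.4 in UT and 62.6 and 58.2 in DOX on day 16, and 56.5 and 57.5 in UT and 47.2 and 42.6 in DOX on day 18. FOXM1 was called higher on day 14 (log2 fold change 0.41, SE 0.14, adjusted p = 0.0402) and on no other day. That call was lost without UT replicate 2 (0.25) or either DOX replicate of day 14 (0.44 and 0.37). With days 12 and 14 alone FOXM1 was called higher (0.33, adjusted p = 0.0202). On days 16 and 18 CDK1, CCNA2 and CCNB1 were called higher in DOX.

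In the chromosomal passenger complex, which corrects faulty attachments and guides cytokinesis, 3 of 4 genes were called higher. INCENP, the scaffold of the complex, differed most, by 1.76-fold (log2 fold change 0.81, SE 0.07, adjusted p = 4.43e-08). INCENP was at 18.5 and 17.1 CPM in UT and 37.1 and 45.4 in DOX on day 14, and at 8.51 and 10.1 in UT and 16.9 and 13.5 in DOX on day 20, with no overlap between the arms on either day. AURKB, the kinase of the complex, and CDCA8 (borealin) had log2 fold changes of 0.29 and 0.23. BIRC5 (survivin) was not called (log2 fold change -0.027, SE 0.07, adjusted p = 0.793), with 69.8 and 57.2 CPM in UT and 58.7 and 71.5 in DOX on day 16. The range of the 4 members of 1 complex thus ran from -0.027 to 0.81.

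The 7 kinetochore genes were divided, with 4 called higher, 1 lower and 2 not called. CENPF, a large outer kinetochore protein, was 1.62-fold higher (log2 fold change 0.70, SE 0.07, adjusted p = 7.77e-08), and CENPA, the histone variant that marks centromeres, differed by 0.56. CENPF was at 88.3 and 89.8 CPM in UT and 174 and 188 in DOX on day 16, and the arms were closer on day 20, at 91.4 and 111 in UT and 123 and 118 in DOX. The 4 subunits of the NDC80 complex, which binds microtubules to the kinetochore, did not move as 1 unit. SPC25 (0.69) and NUF2 (0.47) were called higher, NDC80 (0.15, SE 0.07) was not called, and SPC24 was called lower (log2 fold change -0.42, SE 0.06, adjusted p = 5.33e-06). CENPE, the motor that carries chromosomes to the metaphase plate, was not called (log2 fold change -0.27, SE 0.14, adjusted p = 0.119), but was called lower without UT replicate 1 of day 18 (-0.33) or of day 20 (-0.35), with the replicate number as a block (-0.24, adjusted p = 0.0121) and without a filter on low counts (-0.24, adjusted p = 0.00178). NDC80 was called higher when any of 3 UT libraries was left out: replicate 2 of day 14 (0.19), replicate 1 of day 16 (0.20) or replicate 2 of day 20 (0.20). SPC24 was at 28.5 and 34.5 CPM in UT and 23.6 and 22.1 in DOX on day 14, 62.1 and 61.3 in UT and 36.7 and 38.9 in DOX on day 16, and 84.4 and 87.4 in UT and 41.0 and 43.6 in DOX on day 18. On those 3 days both DOX libraries lay below both UT libraries, and the adjusted p-values were 0.0101, 0.000214 and 7.21e-06. On day 12 the order was the other way, 9.54 and 10.2 in UT and 12.4 and 12.6 in DOX, a difference that was not called (log2 fold change 0.34). The call of day 14 was lost without UT replicate 2 (-0.32) or DOX replicate 2 (-0.42), and by library size alone the value of day 16 was 0.22 and that of day 18 -0.11.

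Of the 9 kinesins, 8 were called higher. KIF18A, which damps chromosome movements at the metaphase plate, was 2.12-fold higher (log2 fold change 1.09, SE 0.14, adjusted p = 2.79e-06). KIF18A was at 13.5 and 17.2 CPM in UT and 15.6 and 16.4 in DOX on day 12, 13.8 and 16.0 in UT and 20.2 and 22.7 in DOX on day 14, and 12.1 and 6.54 in UT and 17.1 and 19.7 in DOX on day 16. On day 18 it was at 1.94 and 1.43 in UT and 11.7 and 11.7 in DOX, the widest gap, and on day 20 at 6.53 and 2.99 in UT and 12.3 and 7.09 in DOX. The arms overlapped on day 12 and not afterwards. With days 12 and 14 alone KIF18A was not called (0.29, adjusted p = 0.319). KIF20A, a motor of the central spindle, was 1.97-fold higher. The spindle motors KIF11 and KIF15, which push the poles apart, differed by 0.44 and 0.34, the microtubule depolymerase KIF2C by 0.63, and the cytokinesis motors KIF23 and KIF14 by 0.47 and 0.42. The chromosome-bound KIF4A had the smallest called value, 0.32. KIF20B, a motor of late cytokinesis, was not called (log2 fold change -0.29, SE 0.17, adjusted p = 0.168), but was called lower with the replicate block (-0.27, adjusted p = 0.0168) and without a filter (-0.26, adjusted p = 0.000817).

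All 6 spindle assembly genes were called higher, with a median of 0.58. DLGAP5, which stabilises the fibres between kinetochores and poles, differed by 1.79-fold (log2 fold change 0.84, SE 0.12, adjusted p = 1.11e-05). DLGAP5 was at 28.5 and 28.5 CPM in UT and 60.1 and 65.6 in DOX on day 14, at 11.3 and 10.7 in UT and 32.0 and 34.7 in DOX on day 16, and at 5.93 and 10.7 in UT and 8.31 and 9.56 in DOX on day 20. The arms were far apart on days 14 and 16 and overlapped on day 20. HMMR, PRC1, TPX2 and ASPM, proteins of spindle microtubules and poles, had values of 0.81, 0.62, 0.54 and 0.54. NUSAP1, which bundles microtubules, had the lowest, 0.40 (SE 0.07), with 73.6 and 51.6 CPM in UT and 97.8 and 109 in DOX on day 14. All 3 cytokinesis genes were called higher: RACGAP1, a component of centralspindlin (0.53), ECT2, the activator of RhoA (0.41, or 0.61 without UT replicate 1 of day 20), and ANLN, the scaffold of the contractile ring (0.31). RACGAP1 was at 23.4 and 18.4 CPM in UT and 35.5 and 42.7 in DOX on day 16, and ANLN at 42.6 and 34.7 in UT and 54.9 and 55.9 in DOX, and neither gene's arms overlapped on that day.

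The 4 genes of anaphase onset and exit were all called higher, with a median of 0.71. UBE2C (ENSG00000175063.17, chr20:45812576-45816957, plus strand), the ubiquitin-conjugating enzyme of the anaphase-promoting complex, was 1.81-fold higher (log2 fold change 0.86, SE 0.06, adjusted p = 7.27e-10). UBE2C was, in CPM, at 45.7 and 45.6 (day 12), 72.6 and 69.1 (day 14), 61.2 and 47.6 (day 16), 30.4 and 31.5 (day 18) and 30.2 and 31.6 (day 20) in UT, and in DOX at 62.0 and 64.2 (day 12), 94.7 and 94.6 (day 14), 126 and 152 (day 16), 79.1 and 69.5 (day 18) and 51.4 and 56.4 (day 20). CDC20, the activator of the same complex, differed by 0.73, and ESPL1 (separase, which cuts cohesin) by 0.69. PTTG1 (securin, the inhibitor of separase) differed by 0.31, and its order changed between days. PTTG1 was at 84.1 and 97.2 CPM in UT and 75.4 and 69.7 in DOX on day 14, where DOX was the lower arm without a call, and at 43.2 and 43.6 in UT and 64.1 and 57.6 in DOX on day 18, where it was the higher. PTTG1, like KIF4A, has near-identical retrocopies in the genome, and its counts are uncertain where reads could be assigned to either copy.

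MKI67, the coat protein of mitotic chromosomes, was called higher (log2 fold change 0.27, SE 0.08, adjusted p = 0.00511), and TOP2A, the enzyme that untangles sister DNA, was called lower (log2 fold change -0.46, SE 0.08, adjusted p = 9.89e-05). MKI67 was at 189 and 163 CPM in UT and 264 and 394 in DOX on day 14, and at 215 and 279 in UT and 204 and 213 in DOX on day 20. DOX was thus the higher arm on day 14 and the lower on day 20, a difference of -0.24 that was not called and that was 0.68 by library size alone. TOP2A (ENSG00000131747.15, chr17:40388516-40417950, minus strand) was, in CPM, at 167 and 191 (day 12), 207 and 277 (day 14), 527 and 636 (day 16), 661 and 833 (day 18) and 1010 and 1320 (day 20) in UT. In DOX TOP2A was at 239 and 260.2 (day 12), 240.2 and 285 (day 14), 227 and 282 (day 16), 342 and 416 (day 18) and 648 and 746 (day 20). Both DOX libraries lay above both UT libraries on day 12 and below both from day 16 onwards. With days 12 and 14 alone its difference was 0.30 (adjusted p = 0.102), the opposite sign to the average over all days.

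**Figure D2:**
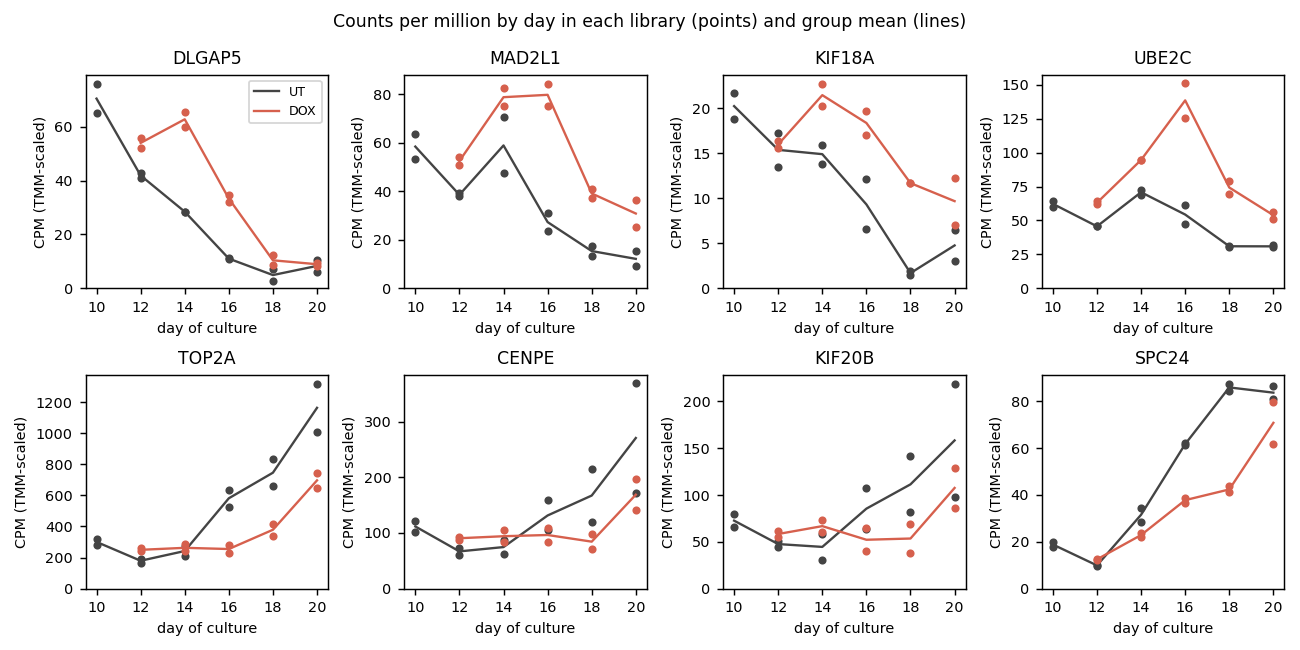
Levels of 8 genes by day of culture, in CPM scaled by TMM. Points are single libraries and lines are group means, dark for UT and red for DOX; the upper 4 genes have the higher means in DOX on days 14 to 20, and the lower 4 have the higher means in UT on days 16, 18 and 20.

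The size of the difference between the arms changed with the day. On day 12, all 51 genes had a positive log2 fold change, against 52.7% of all genes tested, with a median of 0.39, and 8 were called higher, where 0.845% of all genes were; none was called lower, where 2.26% were. These 8 were AURKB, CENPF, KIF20A, PRC1, ASPM, CDC20, UBE2C and PTTG1. Without any 1 of the 4 libraries of day 12, most of these calls were lost, so that this day's calls rest on all 4 libraries. Most calls over all genes tested were lost as well. The median of the 51 was 0.36 and 0.43 without UT replicate 1 and 2, and 0.41 and 0.39 without DOX replicate 1 and 2. The count of calls also moved with the fit. With only the groups of that day fitted, 45 of the 51 were called higher, where 11.6% of all genes were. The counts were 19 with limma-voom (3.19%), 15 with DESeq2 (2.97%), 14 with the replicate block (1.56%) and 3 by library size alone (0.313%). On day 14, 29 were called higher (background 15.3%) and 1 lower (11.7%), with a median of 0.51. The median of day 14 was 0.43 and 0.55 without UT replicate 1 and 2, and 0.53 and 0.48 without DOX replicate 1 and 2. Fewer genes were called higher without DOX replicate 2, among the 51 and over all genes tested. Day 16 had the widest difference, with 38 called higher (21.2%), 2 lower (18.7%) and a median of 0.88. Without UT replicate 2 of day 16, the library with high fibroblast genes, the median was 0.74 on day 16 and 0.45 in the averaged comparison. PLK1 was 2.23-fold higher on that day (SE 0.20 on the log2 scale) and CCNB1 3.08-fold (SE 0.20).

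On day 18 the 51 genes were more divided: 22 were called higher (19.8%) and 4 lower (16%), 37 had a positive value, and the median was 0.30. The 4 called lower were TOP2A, SPC24, CENPE and KIF20B. Without UT replicate 2 or DOX replicate 1 of day 18, CENPE and KIF20B each lost their call. CENPE then stood at -0.50 and -0.76 (log2 fold change -0.99 with all libraries), and KIF20B at -0.60 and -0.67 (-1.06). Scaled by library size, 46 were called higher and 0 lower on that day, where 53.7% and 3.21% of all genes were. On day 20, 17 were called higher (15.9%) and 1, TOP2A, lower (11.9%), with a median of 0.26 over the 51. The median was 0.47 without UT replicate 2 of day 20, 1.19 by library size alone and 0.53 by library size with mitochondrially encoded genes taken out. Without UT replicate 1 of day 20 the median was 0.26, and without DOX replicate 1 and 2 it was 0.27 and 0.36. Fewer genes were called higher without DOX replicate 1, among the 51 and over all genes tested. The call of TOP2A was lost without DOX replicate 1 or UT replicate 2 of day 20. The DOX mean was above the UT mean on all 5 days for 34 of the 51 genes, against 17.4% of all genes tested. Only KIF20A, CDC20 and UBE2C, 3 of the 51, were called higher on all 5 days, where 0.433% of all genes tested were, and each of the 3 lost at least 1 of these calls when a single library was left out; 8 genes were called higher on no day, against 63.1% of all genes tested.

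**Figure D3:**
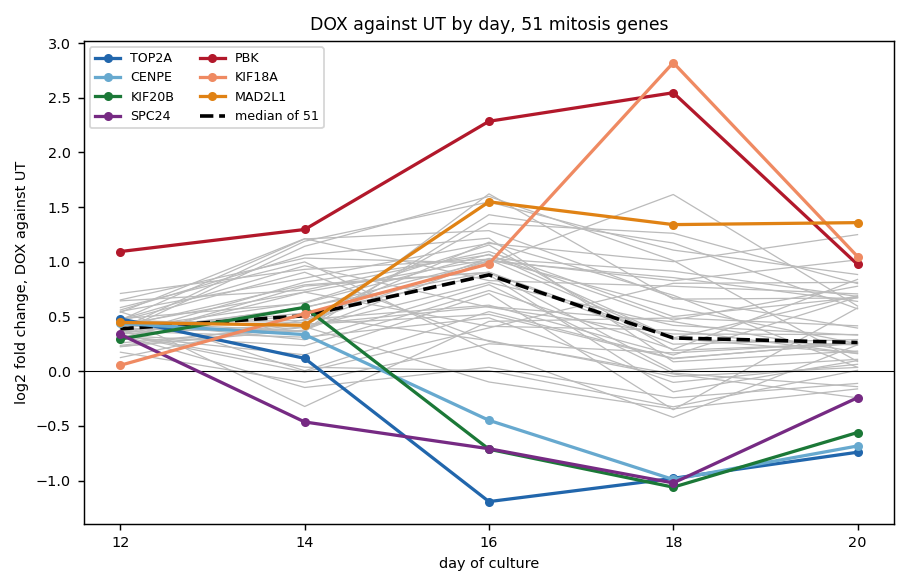
DOX against UT log2 fold change by day for the 51 genes. Grey lines are single genes, 7 genes are coloured, and the dashed line is the median of the 51, which is highest on day 16 at 0.88; TOP2A, CENPE, KIF20B and SPC24 are below 0 on days 16 to 20.

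Without doxycycline, most mitosis genes fell over culture. From UT day 10 to UT day 20, 41 of the 51 were called lower, where 34.2% of all genes tested were, and 5 were called higher, where 28.1% were. The median was -1.30, against -0.24 for all genes tested. DLGAP5 fell by 3.07 on the log2 scale (SE 0.29), from 65.3 and 75.8 CPM to 5.93 and 10.7, PBK by 2.82, BUB1 by 2.73 and INCENP by 2.52. The 5 that rose were TOP2A, SPC24, CENPE, KIF20B and BIRC5. The median of the 51 was -1.375 and -1.215 without UT replicate 1 and 2 of day 10. Without UT replicate 1 and 2 of day 20 it was -1.211 and -1.415. The change was not steady. Between day 10 and day 12 both libraries of day 12 lay below both of day 10 for all 51 genes, where this held for 37.1% of all genes tested. The highest UT mean was on day 10 for 36 of the 51 genes, and the summed CPM of the 51 was 3794 ± 228 (SD, n = 2) at day 10, 2365 ± 127 at day 12 and 3196 ± 578 at day 20. Means below that of UT day 10 were not particular to UT. In DOX, 49 of the 51 lay below it on day 12, 13 on day 14 and 41 on day 20. Of all genes tested, 50.2%, 48.7% and 51.8% did. In UT 51, 40 and 43 of the 51 lay below it on these days (55.4%, 49.4% and 55.2%).

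**Figure D4:**
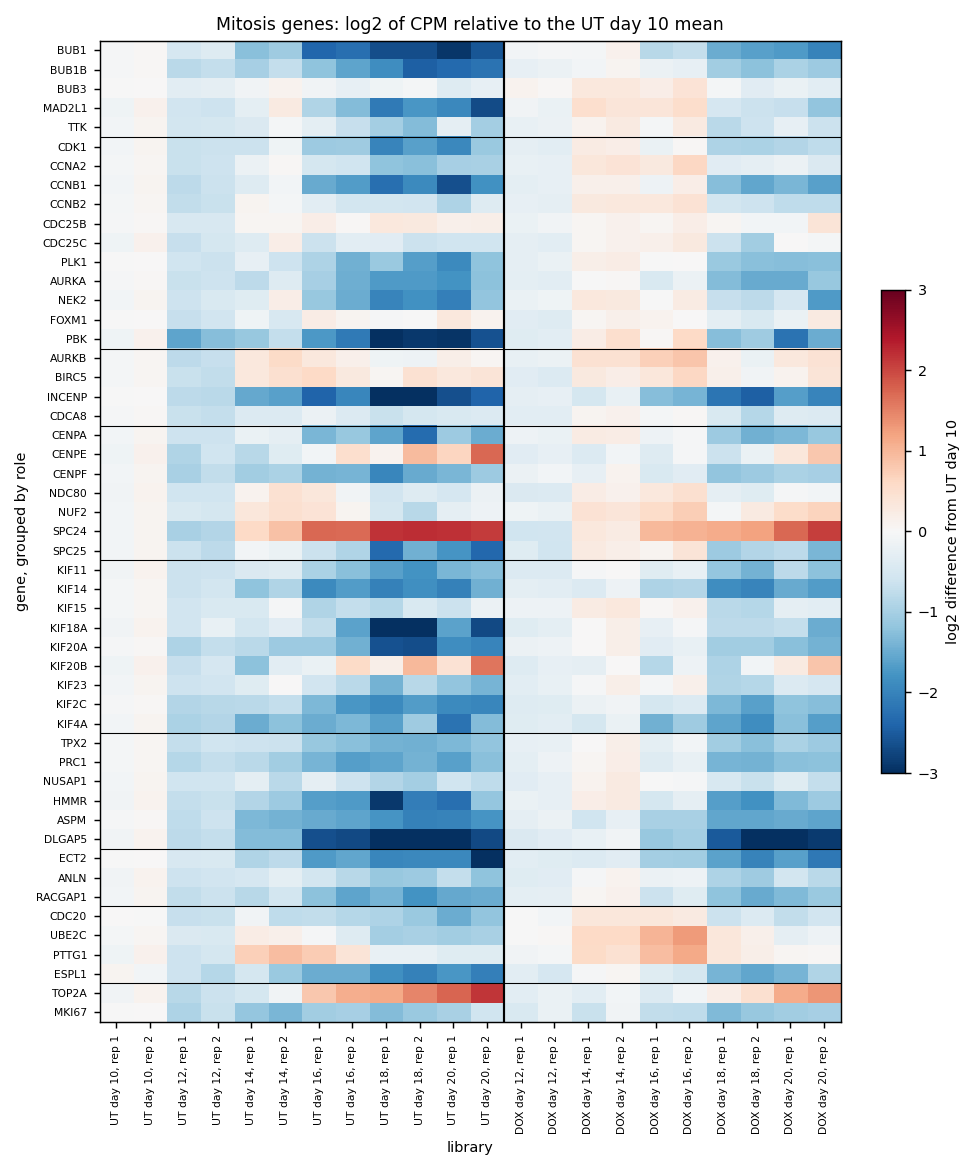
Levels of the 51 genes in each of the 22 libraries, as the log2 difference from the mean of the UT day 10 libraries (blue lower, red higher, limited to 3 in either direction). Rows are genes in role order and columns are libraries, UT left of the black line and DOX right of it. The means of all 51 rows are below 0 on UT day 12. On day 16 the means of 27 rows are below -1 in UT and of 4 in DOX. On day 18 this holds for 34 and 24 rows, and on day 20 for 30 and 23. TOP2A and SPC24 turn red.

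TOP2A rose 3.88-fold from UT day 10 to UT day 20 (log2 fold change 1.95, SE 0.19, adjusted p = 4.61e-08), from 280.2 and 321 CPM to 1010 and 1320. It made up 7.92% ± 0.282 (SD, n = 2) of the summed CPM of the 51 genes on UT day 10, 22.4% ± 2.96 on day 16 and 36.4% ± 0.267 on day 20. Its share in DOX was 7.80% ± 0.238 on day 12, 7.43% ± 0.542 on day 16 and 24.2% ± 1.43 on day 20. Without TOP2A, the sum of the other 50 went from 3493 ± 200 CPM on UT day 10 to 2032 ± 359 on UT day 20, against 3794 and 3196 CPM with it. These are shares and sums of reads, not corrected for transcript length, and serve to follow the gene over time. By library size alone the change of TOP2A from UT day 10 to day 20 was -0.24 and that of SPC24 -0.023, against a median of -2.41 over all genes tested. SPC24 (ENSG00000161888.11, chr19:11131520-11155808, minus strand) rose from 17.9 and 19.8 CPM to 86.5 and 80.9 (log2 fold change 2.15, SE 0.13), while SPC25 (ENSG00000152253.9, chr2:168834132-168913371, minus strand), its partner in the same complex, fell from 16.9 and 19.0 to 5.14 and 3.42 (-2.08, SE 0.27).

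CENPE (ENSG00000138778.13, chr4:103105806-103198409, minus strand) was at 102 and 121 CPM on UT day 10 and 173 and 369 on day 20 (log2 fold change 1.28, SE 0.32). KIF20B (ENSG00000138182.15, chr10:89701610-89774939, plus strand) was at 65.7 and 79.5 on UT day 10 and 97.6 and 219 on day 20 (1.13, SE 0.39). The 2 libraries of UT day 20 were far apart for both genes, and the calls were lost without replicate 2 of that day, where CENPE stood at 0.59 and KIF20B at 0.39. KIF20B also lost its call without replicate 1 of day 10 (1.00). TOP2A, CENPE and KIF20B were higher in replicate 2 than in replicate 1 in all 11 groups, which held for 3 of the 51 genes and for 1.51% of all genes tested. BIRC5 rose by 0.36 and lost its call whichever of the 4 libraries was left out, with values from 0.29 to 0.43. The rises of these genes were relative to the other genes after TMM scaling: by library size alone the values were -0.93 for CENPE, -1.08 for KIF20B and -1.82 for BIRC5, and 0 of the 51 were called higher and 49 lower, where 7.22% and 71.8% of all genes were. With mitochondrially encoded genes taken out before scaling by library size, TOP2A stood at 1.50, SPC24 at 1.72, CENPE at 0.81, KIF20B at 0.66 and BIRC5 at -0.087, and of these 5 only BIRC5 changed sign.

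Over the days that both arms share, from day 12 to day 20, 31 genes fell (background 32.9%) and 8 rose (27.6%) in UT, with a median of -0.65. In DOX, 31 fell (29.7%) and 8 rose (26.7%), with a median of -0.61. By library size alone the counts were 47 and 2 in UT and 47 and 1 in DOX, where 72.7% and 5.68% of all genes were called in UT and 57.8% and 8.9% in DOX. Under TMM, the DOX median was -0.57 and -0.64 without DOX replicate 1 and 2 of day 12. Without DOX replicate 1 and 2 of day 20 it was -0.66 and -0.50. Fewer rises were called without either DOX replicate of day 12 or replicate 2 of day 20, over all genes tested as well. Over these 5 days the highest mean fell on day 14 for 27 of the 51 genes in UT and 30 in DOX, against 14.5% and 12.9% of all genes tested. On day 12 it fell for 14 genes in UT and 5 in DOX, against 35.3% and 28.4% of all genes tested. On day 16 it fell for 3 and 11, against 11.1% in each arm. The summed CPM in UT was 2365 ± 127 (SD, n = 2, day 12), 2646 ± 161 (day 14), 2596 ± 2.12 (day 16) and 2460 ± 289 (day 18). In DOX it was 3198 ± 94.8 (day 12), 3872 ± 301 (day 14), 3420 ± 274 (day 16) and 2263 ± 22.6 (day 18). DLGAP5 fell by 2.32 on the log2 scale in UT and by 2.60 in DOX, and SPC24 rose by 3.08 and 2.50.

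The change from day 12 to day 20 differed between the arms for 1 of the 51 genes, TOP2A. The test of this difference called 0 of the 51 higher in DOX than in UT, where 5.62% of all genes tested were, and 1 lower, where 3.34% were. TOP2A rose 6.50-fold in UT (log2 fold change 2.70, SE 0.19) and 2.79-fold in DOX (1.48, SE 0.19), a difference of -1.22 (SE 0.26, adjusted p = 0.00554). The median difference of the 51 was -0.12, and its sign turned without UT replicate 2 of day 20 (0.082), by library size alone (0.86) and by library size with mitochondrially encoded genes taken out (0.19). A difference between the courses was not called for the other 50 genes, which does not show that their courses were alike: MAD2L1 had a value of 0.91 (SE 0.32, adjusted p = 0.0885) and CENPE of -1.12 (SE 0.45, adjusted p = 0.131). Both were called without UT replicate 1 of day 20, at 1.34 and -1.57, and MAD2L1 also without DOX replicate 2 of day 20 (1.14). The median difference of the 51 was -0.16 without UT replicate 1 of day 20 and -0.098 without DOX replicate 2 of day 20. With library sizes as the only scaling, 38 were called higher and 0 lower (background 46.9% and 0.497%), with TOP2A at -0.24 (adjusted p = 0.467), where the median of all genes tested was 1.03. With mitochondrially encoded genes taken out first, 7 were called higher and 1, TOP2A (-0.90), lower, where 11.4% and 1.42% of all genes were.

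**Figure D5:**
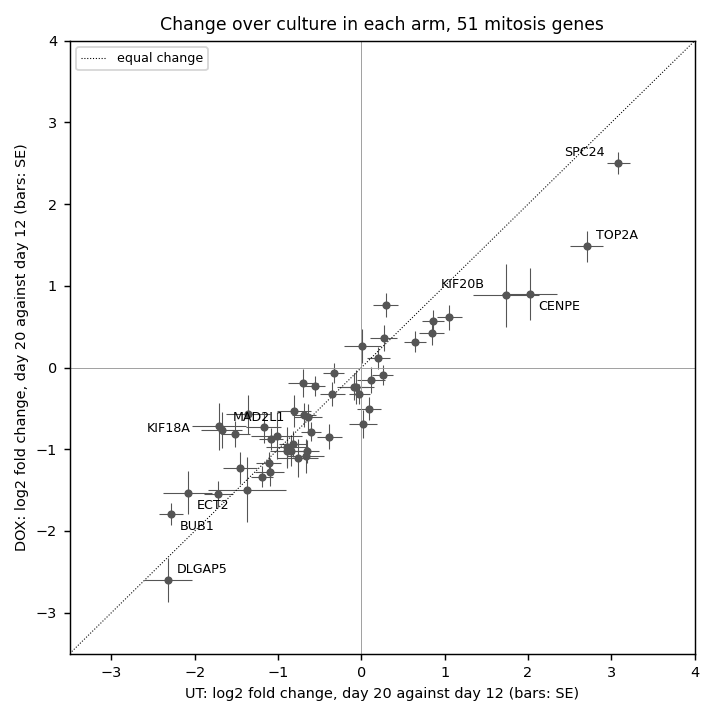
Change from day 12 to day 20 in UT (horizontal) and in DOX (vertical) for the 51 genes, as log2 fold changes with their SE. Points on the dotted line changed equally; SPC24 and TOP2A lie at the upper right, DLGAP5 and BUB1 at the lower left, and TOP2A is the only gene for which the difference between the arms was called.

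The genes around the 51 were read from 8 further lists, of which 7 with 98 genes cover the mitotic machinery and 1 with 27 genes DNA replication. Scaled by library size alone, none of these genes was called lower in the averaged comparison, so that the counts of lower genes below hold after TMM scaling. Of the 98, 56 were called higher in DOX and 17 lower in the averaged comparison, where 29.8% and 23% of all genes tested were, with a median of 0.27 against 0.08. In the UT course 25 of them rose and 54 fell, where 28.1% and 34.2% of all genes did. The same shares are the background of each list below. The core of the anaphase-promoting complex had 7 higher and 1 lower of 14, led by ANAPC10 (0.96), CDC23 (0.66) and CDC27 (0.38). Condensin, which compacts chromosomes, had 5 higher and 1 lower of 8, with NCAPH (0.82), NCAPG2 (0.75) and NCAPD2 (0.70) highest. Of 25 genes of the inner centromere and the outer kinetochore network, 13 were higher and 4 lower, among them CENPH (0.93), OIP5, a loading factor of CENPA (0.90), and PMF1, a subunit of the MIS12 complex (-0.59). Of 18 centrosome and spindle genes, 12 were higher and none lower, led by the microtubule polymerase CKAP5 (0.94), CEP192 (0.91) and DEPDC1 (0.85).

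Of 6 other checkpoint genes, 5 were higher and 1 lower, with TRIP13, which recycles MAD2, at 0.95, KNTC1 at 0.51 and SPDL1 at 0.47. Of 15 other regulators of entry and exit, 9 were higher and 5 lower, with the CDK subunit CKS2 at 0.86, FBXO5, an inhibitor of the anaphase-promoting complex, at 0.74, and LIN9, a DREAM subunit, at 0.59. The 27 replication genes had 17 higher and 2 lower, with a median of 0.23, below that of the 51 mitosis genes; RFC3 (0.82), TYMS (0.79) and RRM2 (0.59) were highest.

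Cohesin, the ring that holds sister chromatids together, and its protectors were evenly divided, with 5 higher and 5 lower of 12. PDS5A was at 0.39, and the centromere protectors SGO1 (-0.69, SE 0.10) and SGO2 (-0.54, SE 0.13) were lowest. The division followed the day: 8 of the 12 were called higher and 0 lower on day 14, where 15.3% and 11.7% of all genes were. On day 20, 0 were called higher and 6 lower, where 15.9% and 11.9% were. By library size alone 5 were called higher and 0 lower on day 20, where 53% and 2.17% of all genes were. SGO1 rose from 14.6 and 15.7 CPM on UT day 10 to 91.1 and 141 on UT day 20 (log2 fold change 2.94, SE 0.23) and was at 31.2 and 32.1 in DOX and 61.1 and 93.9 in UT on day 18. Like TOP2A and SPC24, it rose over the UT course and was called lower in DOX. By library size alone SGO1 rose by 0.74 in UT and differed by -0.16 between the arms (adjusted p = 0.14).

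Markers of mature blood cells also differed between the groups. The summed CPM of 8 neutrophil granule genes was 481 to 663 on UT day 10, 3733 to 3970 on UT day 20 and 1820 to 1828 on DOX day 20, and 8 of 8 were lower in DOX in the averaged comparison (background 23%). For 7 genes of mast cells, basophils and eosinophils the sums were 30.4 to 31.4, 20420 to 24330 and 10740 to 11560, with 6 lower in DOX. For 6 monocyte genes, of which 5 were lower in DOX, the sums were 203 to 247.4, 228.8 to 236.9 and 176.1 to 226.4. The monocyte sum was thus similar on UT days 10 and 20, and it was 444.6 to 606.2 on UT day 14. With library sizes as the only scaling, 7 of the 8, 6 of the 7 and 1 of the 6 were lower, where 8% of all genes were. The 9 erythroid genes went the other way, 1459 to 1463 CPM on UT day 10, 80.3 to 96.0 on UT day 20 and 308 to 371 on DOX day 20. Of these 7 were higher in DOX, as were 5 of 5 megakaryocyte genes (background 29.8%). The 4 endothelial genes summed to 313.8 to 360.1, 5.986 to 7.715 and 30.56 to 33.65 CPM in the same groups. The part of this change in cell type markers, and of the mitochondrial share, in the levels of the mitosis genes was not tested.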

How the data were processed

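Per the labels, polyA RNA was sequenced in 22 libraries. Trim Galore 0.6.5, STAR and Salmon were used with hg38, per the submitters' processing notes; the annotation, the strand setting and the versions of STAR and Salmon are not given in the sources used here. For each gene and library the authors deposited expected counts without normalisation, and 88.3% of the values were whole numbers. All 22 columns were mapped to samples and 0 were left unmapped. All labels give the same batch.

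Counts were rounded, filtered with filterByExpr (edgeR 4.0.16, minimum count 10, R 4.3.3) and TMM-scaled. Every comparison came from the same quasi-likelihood fit, in which each group had its own coefficient and 11 residual degrees of freedom remained. Genes with a p under 0.05 after Benjamini-Hochberg adjustment over the 20115 genes were called. Gene positions were taken from GENCODE 29 on GRCh38 and promoters from RefSeq (GRCh38.p14). The fit was also run on simulated data, with the spread taken from the same fit. There each gene kept the same share of counts in all groups, apart from set differences between the arms. The simulation held no shift in mitochondrial share, so it cannot show whether the TMM calls hold here.

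The 51 genes, the roles, the pathway and marker lists and the tests were chosen with earlier results of these data known. In full are given, per role, the genes with the highest and lowest averaged difference, those called lower on any day and those whose change differed between arms; other lists name up to 3 called genes with the largest difference.

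The fits were repeated with library sizes alone, DESeq2 size factors, DESeq2 1.42.0, limma-voom (limma 3.58.1), no filter, at least 1 CPM in 4 libraries, only the groups compared, replicate number as a block, mitochondrially encoded genes removed, days 12 and 14 alone, and leaving out each library, where the lone library left is assumed to vary like the other groups. Removing mitochondrially encoded genes with library sizes alone, and days 12 and 14 alone for the mitochondrial share, were added after seeing the data.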

Additional observations from a re-analysis of the deposited data

Results flagged for a closer look

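The change of TOP2A from day 12 to day 20 differed between the arms by the test of that difference itself. TOP2A rose in both arms, and less in DOX, by -1.22 on the log2 scale (adjusted p = 0.00554, edgeR's quasi-likelihood test over all genes tested, 2 libraries per group). With each library left out in turn the value lay between -1.40 and -1.001. By library size alone it was -0.24 (adjusted p = 0.467), and over the other settings it lay between -1.26 and -0.90, with adjusted p of at most 0.0156. The mitochondrial share of counts was higher in UT than in DOX on day 20 (72.7% against 57.0%), and its part in this difference was not tested.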

How the results depend on the processing

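Without each library in turn, members called higher and lower numbered 43 to 44 and 2 to 3 (averaged), 0 to 2 and 0 (day 12), 18 to 25 and 0 to 1 (day 14), 32 to 39 and 2 (day 16), 15 to 20 and 2 to 4 (day 18), 10 to 16 and 0 to 2 (day 20), 2 to 4 and 36 to 39 (UT day 20 against day 10), 8 and 25 to 30 (UT day 20 against day 12), 5 to 9 and 25 to 29 (DOX course), and 0 to 3 and 1 to 4 (difference of courses). The mitochondrial share differed by -15.7 to -14.2 points. In the following, percentages in parentheses are the shares of all genes tested under the same setting. Library sizes alone gave 0 lower in the averaged comparison (8%) and on days 16 (4.99%), 18 (3.21%) and 20 (2.17%). They gave 3 higher on day 12 (0.313%), 46 on day 18 (53.7%) and 48 on day 20 (53%). They gave 0 higher for UT day 20 against day 10 (7.22%), and 2 higher and 47 lower against day 12 (5.68% and 72.7%). For the DOX course they gave 1 higher and 47 lower (8.9% and 57.8%), and for the difference of courses 38 and 0 (46.9% and 0.497%). They reversed BIRC5 (0.50), SPC24 (0.11) and TOP2A (0.068) in the averaged comparison, SPC24 on day 16 (0.22), MKI67 on day 20 (0.68), and BIRC5 (-1.82), CENPE (-0.93), SPC24 (-0.023), KIF20B (-1.08) and TOP2A (-0.24) in the UT course, by construction keeping the mitochondrial counts in the totals. With mitochondrially encoded genes removed as well, 3 were higher on day 12 (0.416%) and 30 on day 20 (24%). In the UT course 3 were higher (21%) and in the difference of courses 7 (11.4%), and BIRC5 was at -0.087 in the UT course. Without a filter, the averaged comparison had 4 lower (12%). Day 14 then had 0 lower (5.85%), day 16 had 4 (9.47%) and day 20 had 3 (6.46%). The difference of courses had 3 higher (3.93%) and 4 lower (2.62%) without a filter. A filter of 1 CPM gave 2 lower on day 14 (18.5%) and 3 in the difference of courses (5.58%), and 12 higher for UT day 20 against day 12 (34%). DESeq2 gave 15 higher on day 12 (2.97%). It gave 2 lower on day 14 (17.5%) and on day 20 (16.8%) and 4 in the difference of courses (7.09%). Its size factors gave 5 higher on day 12 (0.607%) and 3 lower in the difference of courses (4.05%). limma-voom gave 19 higher on day 12 (3.19%), 2 lower on day 14 (16%) and 10 higher on day 20 (10.6%). Only the groups compared gave 45 higher on day 12 (11.6%), and 9 higher and 2 lower on day 20 (7.04% and 7.46%). Days 12 and 14 alone gave 0 lower in the averaged comparison (10.8%), with TOP2A at 0.30, and a difference in mitochondrial share of -0.921 points. On these days 14.2% of all genes were called higher. TTK (0.38), CDC25C (0.24), NEK2 (0.37), NUF2 (0.16), SPC25 (0.30), KIF18A (0.29), KIF23 (0.28), ECT2 (0.30) and PTTG1 (0.088) were then no longer called higher. SPC24 (-0.063) was no longer called lower. For these counts the cause was not tested. Removing mitochondrially encoded genes under TMM changed 4 of 510 calls of members.

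With the replicate block, 4 members were lower in the averaged comparison, where 23.6% of all genes were, and 14 higher on day 12 (1.56%). On day 20, 2 were lower (13.3%) and in the difference of courses 4 (5.27%), and no call was lost. The 2 gained in the averaged comparison were CENPE (-0.24) and KIF20B (-0.27), which were also called without a filter. The numbers were not taken as pairs, since the labels name no shared source. Differences between replicate 1 and replicate 2 were correlated between groups, and 5 of 55 pairs of groups had a correlation over 0.1 (median 0.04, -0.02 to 0.20). Yet 304 of the 20115 genes were higher in replicate 2 in all 11 groups. These values do not decide whether same-numbered libraries share a source, which was not tested. With 2 libraries per group and 7591452 counts outside mitochondrial genes in the shallowest library, absence of a call on a single day does not show equal levels.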
